A study of Mus musculus with 6 samples.

Results

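Foxd1-positive ESC are mouse embryonic stem cells (ESC) that carried messenger RNA of Foxd1, a forkhead transcription factor, in culture before any differentiation. They were selected on measured counts, so their Foxd1 level describes the choice and tests nothing. A kept cell barcode of the 2 ESC libraries, one in which 1000 genes or more were detected and mitochondrial transcripts took no more than 10% of UMIs, was a member when it held 2 or more Foxd1 UMIs and fewer than 2 UMIs of Dppa3. Cells with 10 or more UMIs of both Krt8 and Krt18 were left out. A UMI (unique molecular identifier) stands for 1 captured transcript. Of 1926 kept ESC, and of 7096 kept cells in the whole series, 520 were members.

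The series profiled ESC of a parental and an Oct1_cKO genotype, written cKO here, by 10x Genomics 5′ single-cell RNA sequencing. Pou2f1 encodes Oct1, a widely expressed POU factor. The labels do not say how Oct1 was deleted, in which part of the gene, or whether either line was 1 clone. The parental and the cKO ESC group held 1 library each and were taken before treatment. The other 4 libraries were differentiated towards mesoderm for 3 or 6 days, in Bmp4 and then in Rspo3 with the BMP receptor inhibitor LDN-193189, and enter only the description of the later days. With 1 library per group no test is possible, and every 95% interval below covers counting error only.

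Foxd1 is best known from the stromal progenitors of the developing kidney and from the temporal retina, where it sets regional identity. Its protein binds DNA through a forkhead domain, and members of this family can act as activators or repressors. Naive mouse ESC are held in their state by Pou5f1, Sox2 and Nanog, with signals from LIF, Wnt and BMP, and are moved out of it by FGF and ERK signalling. Single cells of such cultures differ in the levels of several regulators, so a gene can be on in some cells and near 0 in others of the same dish.

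The promoter of Foxd1 is shown because that gene chose the cells, that of Tbx18 because it is a marker named with the label, and that of Pgc because it was among the genes higher in the members of both genotypes. The windows are the 250 bases before the annotated start, 5′ to 3′ on the gene's strand, from RefSeq on GRCm38.p6: chr13:98353995-98354244 (plus strand) for Foxd1, chr9:87731261-87731510 (minus strand) for Tbx18 and chr17:47726592-47726841 (plus strand) for Pgc. Capitals mark the letters CCAAT and TATAAA, searched on both strands.
Foxd1: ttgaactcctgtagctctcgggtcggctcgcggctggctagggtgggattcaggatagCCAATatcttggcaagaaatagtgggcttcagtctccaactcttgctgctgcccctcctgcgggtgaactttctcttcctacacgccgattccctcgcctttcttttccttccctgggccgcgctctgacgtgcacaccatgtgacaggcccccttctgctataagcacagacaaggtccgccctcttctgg
Tbx18: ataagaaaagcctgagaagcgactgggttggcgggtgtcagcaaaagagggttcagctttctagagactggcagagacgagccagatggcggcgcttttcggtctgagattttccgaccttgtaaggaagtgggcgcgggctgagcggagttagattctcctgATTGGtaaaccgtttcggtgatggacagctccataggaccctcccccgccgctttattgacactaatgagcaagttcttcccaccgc
Pgc: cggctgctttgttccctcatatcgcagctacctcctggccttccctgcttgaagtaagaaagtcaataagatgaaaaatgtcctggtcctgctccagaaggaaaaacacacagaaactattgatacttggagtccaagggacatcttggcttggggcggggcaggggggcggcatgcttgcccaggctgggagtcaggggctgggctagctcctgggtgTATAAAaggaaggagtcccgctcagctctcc
CCAAT lay once in the Foxd1 window, starting 192 bases before the start, and once in the Tbx18 window, at 87 bases. TATAAA lay once in the Pgc window, at 31 bases. Of all 32851 windows of this length, 33.8% held CCAAT and 12.4% held TATAAA. The octamer ATGCAAAT, the textbook site of POU factors such as Oct1, the forkhead letters GTAAACA and the palindrome bound by EBF factors were in none of the windows found for 12 of the 20 genes looked up. Over all windows they were in 1.60%, 3.17% and 0.779%.

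Foxd1-positive cells made up a far larger share of the cKO library than of the parental one. In parental ESC 199 of 1396 kept cells were members, a share of 14.3% (12.5 to 16.2, Clopper-Pearson), and in cKO ESC 321 of 530 cells, a share of 60.6% (56.3 to 64.8). Summed over all kept cells, Foxd1 (ENSMUSG00000078302, mm10 chromosome 13) stood at 20.8 CPM (counts per 1000000 UMIs; 19.8 to 21.8) in the parental library. In the cKO library it stood at 136 CPM (132 to 140). The intervals did not overlap. The parental cells had a median of 51732.5 UMIs and the cKO cells of 70990.5, so the libraries also differed in depth. When each cell was thinned to 20000 UMIs, with 197 parental and 71 cKO cells below that depth left out, the shares were 7.59% (6.15 to 9.24) and 47.5% (42.8 to 52.2).

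Members of the cKO library also held more Foxd1 per cell. Parental members held a median of 4 Foxd1 UMIs and at most 51, and cKO members a median of 11 and at most 109. Cells with 12 or more UMIs were 31 of the parental members (15.6%) and 158 of the cKO members (49.2%). At the threshold, 60 parental and 27 cKO members held exactly 2 UMIs, with median levels of 36.8 and 35.0 CPM. Just outside it, 160 parental and 54 cKO cells held 1 UMI, with medians of 19.1 and 18.7 CPM. Of the kept cells with 2 or more Foxd1 UMIs, Dppa3 removed 11 parental and 6 cKO cells, the keratins removed 0 and 7, and both limits removed 0 and 2.

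**Figure D1:**
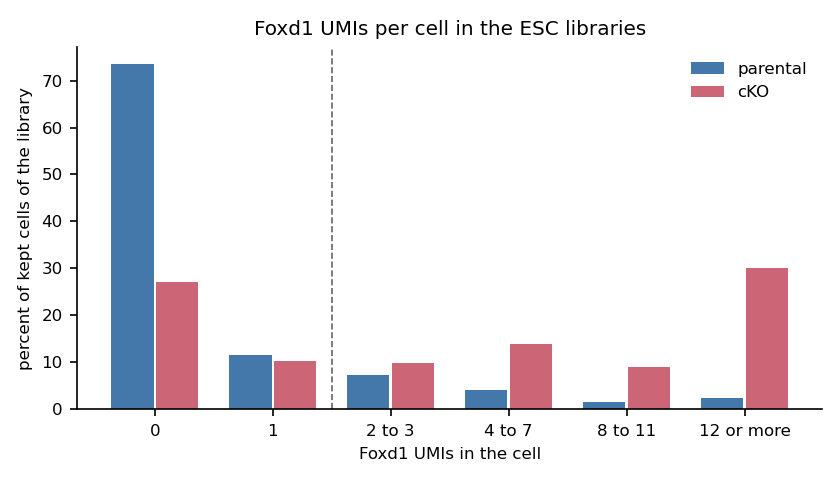
Share of kept cells in each library (y axis, percent) by the number of Foxd1 UMIs in the cell (x axis, classes) for parental (blue) and cKO (red) ESC, with the lower limit for members as a dashed line. In the cKO library 30.0% of kept cells held 12 or more Foxd1 UMIs, and in the parental library 2.29%.

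Foxd1 transcripts were sparser in the other cell states of the dishes. Dppa3 marks a state of ESC close to the inner cell mass and the germline, Krt8 and Krt18 are keratins of simple epithelia, and fibroblast-marker cells are defined here by 3 or more UMIs of at least 4 of 14 fibroblast genes. In the parental library 2 or more Foxd1 UMIs were found in 3.64% of 110 fibroblast-marker cells (1.0 to 9.05; median 49718 UMIs), against 16% of the 1286 others (median 52062 UMIs). They were found in 6.18% of 178 Dppa3-positive cells (median 77882 UMIs) and in 0 of 44 keratin-high cells, for which the Clopper-Pearson upper bound is 8.04% and 3 counts of the total make 6.82%. In the cKO library they were found in 31.6% of 19 Dppa3-positive cells and 17.1% of 41 keratin-high cells, against 66.5% of the 489 cells without high keratins. As a level, Foxd1 measured 11.4 CPM in keratin-high cKO cells (8.0 to 15.7) and 147 CPM in the others. How much of these low levels was free RNA in the droplets was not tested.

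As a group the members carried the markers of ESC, though a parental member nearly lacked them. Summed over 7 ESC markers, parental members measured 6403 CPM and cKO members 6548 CPM, and no marker was at 0. The Foxd1-zero cells of at least 20000 UMIs measured 5510 and 5661 CPM. Over single members the lowest sum was 11.9 CPM in parental and 1575 CPM in cKO. Without fibroblast-marker cells the lowest parental sum was 2206 CPM. Pou5f1 was at 820 CPM in parental members and 834 CPM in cKO members, and Nanog 163 and 184 CPM. Of 14 fibroblast markers none was at 0 in parental members. Their summed level ran from 0 to 39006 CPM over cells, with a median of 10.3 CPM, and 4 fibroblast-marker cells held 97.1% of it. In cKO members, 4 of the 14 (Col3a1, Acta2, Postn and Lum) were at 0 and the sum was 3.34 CPM. Kidney stroma markers summed to 5.88 CPM in parental and 3.98 CPM in cKO members, with Tcf21 at 0 in both. Tuft cell markers summed to 1.37 CPM in parental and 1.28 CPM in cKO members, although Pou2f3 is a regulator of that lineage. Of these 4 markers Trpm5 and Gnat3 were at 0 in both, and Avil and Dclk1 were detected.

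The members were compared with kept cells of the same library that held 0 Foxd1 UMIs and at least 20000 UMIs in all: 849 parental and 96 cKO cells, called the Foxd1-zero cells. This reference was not held to the Dppa3 and keratin limits. In parental it held 144 Dppa3-positive, 32 keratin-high and 81 fibroblast-marker cells, and in cKO 10, 25 and 1. A second reference, added after the data were seen, applied the same Dppa3 and keratin limits and left fibroblast-marker cells out of both sides. It had 609 parental and 62 cKO Foxd1-zero cells against 195 and 321 members and is called the same-limits reference. Depths were close in parental, where members and Foxd1-zero cells had medians of 56019 and 56338 UMIs. In cKO the members were deeper, with a median of 78739 UMIs against 70397 in the Foxd1-zero cells and 66993.5 in the same-limits ones. A gene was counted as different at 1.5-fold or more with at least 10 CPM in the higher group.

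By that rule 40 of 7357 genes (0.544%) were higher and 322 (4.38%) lower in parental members than in Foxd1-zero cells. In cKO 224 of 7479 genes (3.0%) were higher and 658 (8.80%) lower. Both genotypes shared 19 higher (0.269%) and 172 lower genes (2.44%) of 7062 compared in both. With the same-limits reference 26 of the 322 lower calls in parental and 134 of the 658 in cKO were made again, and 20 of the 40 and 72 of the 224 higher ones. There were 31 higher (0.438%) and 31 lower genes (0.438%) of 7083 in parental, and 96 higher (1.33%) and 152 lower (2.10%) of 7241 in cKO. Shared by both genotypes were 9 higher (0.131%) and 12 lower genes (0.175%) of 6870. The median log2 ratio over all genes compared was 0.00 in parental and −0.01 in cKO with either reference. Per chromosome the medians stayed between −0.094 and 0.093 in parental and between −0.063 and 0.097 in cKO.

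The 12 genes lowest in both genotypes under the rule's reference, ranked by the smaller of the 2 ratios, were H19, Thbs1, S100a4, Csf1, S100a6, Capn2, Tnfrsf12a, Ccdc80, Xist, Tinagl1, Col1a1 and Serpine2. Col1a1, the main collagen of fibroblasts, measured 19.5 against 71.8 CPM in parental and 0.150 against 29.8 CPM in cKO. With the same-limits reference it measured 1.07 and 1.85 CPM in parental and 0.150 CPM against 0 UMIs in cKO. H19, an imprinted non-coding RNA, measured 0.886 against 19.4 CPM in parental and 0.788 against 45.0 CPM in cKO, and 0.904 against 1.41 CPM and 0.788 against 0.433 CPM with the same limits. S100a6, a calcium-binding protein, was an exception in cKO. Its same-limits levels were 15.7 CPM in members and 107 CPM in Foxd1-zero cells, a log2 ratio of −2.77 (−2.96 to −2.58), against −0.57 in parental. Of 13 feeder fibroblast genes measured in parental 12 were lower with the rule's reference, and with the same limits 2 could be measured and 0 were lower. The same-limits reference leaves cells out by their counts of fibroblast genes, and Col1a1, Col1a2, Lox and Acta2 are among those genes. The loss of these calls was therefore in part set by the choice of cells.

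Under the rule's reference, 40 higher genes in parental included Ankrd1, at 13.6 against 4.30 CPM. Without the 4 fibroblast-marker members it was at 0 in parental members, so that call rests on those cells. Its cKO levels were 0.300 and 11.6 CPM. The lowest ratios in parental included Cck, Grem1, Masp1, Ltbp2 and Nbl1, each at 0.842 CPM or less in the members and in the Foxd1-zero cells once the same limits applied. In cKO the lowest included Crct1 and Mgp, which were at 0.217 CPM or less in both groups of cKO cells with the same limits.

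Of the markers named with the label, only Ebf1 passed the limit in both genotypes. Ebf1, a helix-loop-helix factor of B cell and stromal development on chromosome 11, measured 42.1 CPM (38.6 to 45.9) in parental members and 19.9 CPM (18.7 to 21.1) in Foxd1-zero cells. In cKO it measured 94.1 CPM (90.4 to 97.8) and 45.4 CPM (40.7 to 50.4). The log2 ratios were 1.09 and 1.05, and with the same limits 0.88 (0.72 to 1.04) and 0.62 (0.44 to 0.80). Thinned to 20000 UMIs, 46.7% of parental members and 28.4% of same-limits Foxd1-zero cells held an Ebf1 UMI, and in cKO 65.4% and 48.4%. At full depth these shares were 68.5% and 45.8% in parental.

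Pou2f3, the class II POU paralog of Oct1 that directs tuft cells, parted the cells less within a genotype. In parental it measured 4.35 CPM in members and 3.37 CPM in Foxd1-zero cells, below the 10 CPM needed for a call. In cKO it measured 25.2 CPM (23.3 to 27.2) and 13.7 CPM (11.2 to 16.6), a log2 ratio of 0.88, and 0.54 (0.20 to 0.89) with the same limits, under the limit of 0.585. Tbx18, a T-box factor of mesenchyme, measured 4.67 and 2.46 CPM in parental. In cKO it measured 19.8 and 10.2 CPM, with a log2 ratio of 0.96 and of 0.56 (0.18 to 0.96) with the same limits. In cKO both genes lay just under the limit once the reference was held to the same limits. With cells thinned as for Ebf1, a Tbx18 UMI was held by 22.3% of cKO members (17.8 to 27.4). Among same-limits Foxd1-zero cells the share was 22.6% (12.9 to 35.0), so the thinned Tbx18 shares showed no excess in cKO members. For Pou2f3 in cKO the thinned shares were 35.6% and 22.6%. In parental they were 6.60% and 2.96% for Tbx18, and 9.14% and 5.91% for Pou2f3.

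**Figure D2:**
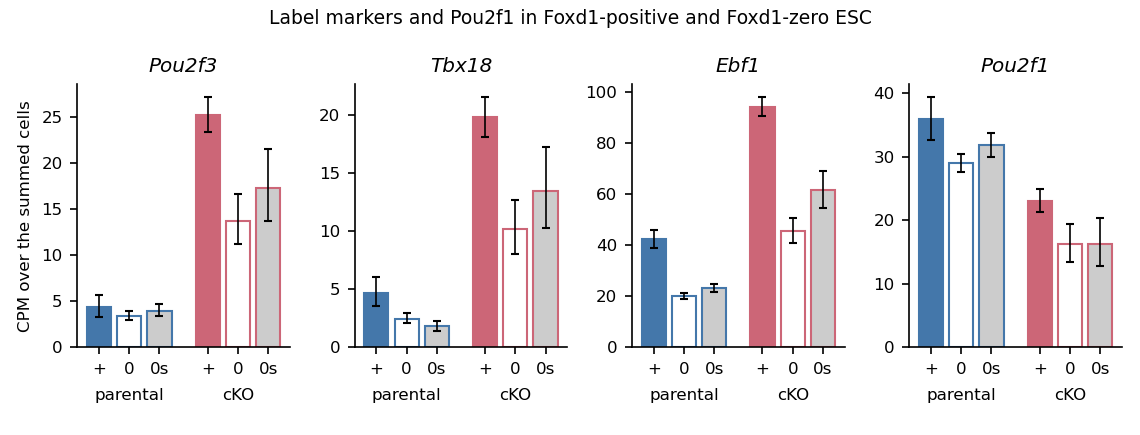
Levels in CPM (y axis, linear, from 0) of 3 label markers and Pou2f1 in Foxd1-positive cells (+), Foxd1-zero cells of the rule (0) and same-limits Foxd1-zero cells (0s) of each genotype, with 95% Poisson intervals as error bars. For Pou2f3, Tbx18 and Ebf1 the cKO bars stand above the parental bars in all 3 kinds of cell, and for Pou2f1 below them.

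The difference between genotypes in these markers was present in Foxd1-zero cells too. Among members, Pou2f3 was higher in cKO by a log2 ratio of 2.53 (2.13 to 2.96), and among same-limits Foxd1-zero cells by 2.13 (1.72 to 2.53). The ratios were 2.08 and 2.9 for Tbx18, and 1.16 and 1.42 for Ebf1. Pou2f1 itself was at 35.9 CPM in parental members and 23.1 CPM in cKO members (log2 ratio −0.64; −0.82 to −0.46), and 31.8 and 16.2 CPM in the same-limits Foxd1-zero cells. A 5′ tag outside a deleted part is counted all the same, so this level does not measure the deletion. Crlf2, a cytokine receptor chain, was nearly lost from cKO members, at 0.188 CPM against 37.7 CPM in parental members. The cKO Foxd1-zero cells of the rule held 2.11 CPM and the same-limits ones 0.650 CPM.

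Over all genes, fewer differed between genotypes among members than among Foxd1-zero cells, but the groups are of unequal size and the difference in counts was not tested. Among members 208 of 7217 genes (2.88%) were higher and 124 (1.72%) lower in cKO. Among same-limits Foxd1-zero cells 557 of 7319 (7.61%) were higher and 347 (4.74%) lower. Without fibroblast-marker cells, members of the cKO library had 231 genes higher and 79 lower, of which 177 and 52 were called in the same direction in the Foxd1-zero cells. Fabp5, a fatty acid carrier, shows the unequal pattern: without fibroblast-marker cells it measured 65.6 and 57.5 CPM in cKO and parental members, but 149 and 91.1 CPM in same-limits Foxd1-zero cells.

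Besides Foxd1, 6 genes were higher in the members of both genotypes with both references: Ebf1, Pgc, Spry4, Fst, Nefm and Gys1. With cells thinned to 20000 UMIs Gys1 and Nefm lost the call in cKO. Gys1 also lost it in parental with 1 or more Foxd1 UMIs and in cKO with equal weight per cell. With stricter barcodes Spry4 lost it in parental and Nefm in cKO. Fst encodes follistatin, a secreted protein that binds activin and some BMPs. It measured 86.0 CPM (80.9 to 91.4) in parental members and 45.0 CPM (42.9 to 47.2) in same-limits Foxd1-zero cells, and in cKO 105 CPM (101 to 109) and 63.7 CPM (56.6 to 71.4). Members lay above the Foxd1-zero cells in each genotype, by log2 ratios of 0.93 and 0.71. Its UMIs were widespread, in 80.5% of parental and 90.0% of cKO members and in 65.7% and 82.3% of Foxd1-zero cells.

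Pgc, which encodes the stomach pepsinogen progastricsin, measured 23.4 against 11.1 CPM in parental and 22.6 against 12.6 CPM in cKO with the same limits. Spry4, a feedback inhibitor of FGF and ERK signalling, measured 19.98 against 11.8 CPM in parental and 27.2 against 14.5 CPM in cKO. Gys1, the muscle form of glycogen synthase, measured 17.7 against 10.8 CPM and 17.4 against 9.75 CPM. All of these are small levels, and Gys1 had the lowest ratios of the 6 with the rule's reference (0.67 and 0.65).

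Nefm, a neurofilament subunit, measured 32.1 against 17.6 CPM in parental and 28.0 against 12.1 CPM in cKO. Its counts were concentrated: 32.3% of parental and 26.8% of cKO members held a UMI, and 1 cell held 41.1% of the 56 UMIs in the cKO Foxd1-zero cells. With stricter barcodes its cKO log2 ratio was −0.18. Lef1, a nuclear factor of the Wnt pathway, passed the limit in both genotypes with the same-limits reference, at 17.5 against 8.26 CPM and 12.7 against 7.15 CPM. Of the 33 Lef1 UMIs in cKO Foxd1-zero cells 1 cell held 27.3%. Cavin1, a coat protein of caveolae, did so as well, at 10.9 against 6.98 CPM and 10.1 against 4.12 CPM, yet under the rule's reference it was lower in parental members (12.2 against 20.8 CPM).

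Other genes among the 12 highest under the rule's reference lost the call in 1 genotype once the reference had the same limits, Nkx6-2 in parental and the others in cKO. Trpm1, a cation channel gene, kept log2 ratios of 0.69 in parental and 0.50 in cKO. Eomes, a T-box factor of the primitive streak and trophoblast, kept 0.70 and 0.57, and Klhl3, a ubiquitin ligase adaptor, 0.92 and 0.30. Sec14l1 kept 0.62 and 0.47, Tenm4 0.60 and 0.24, and Peli2 0.69 and 0.44. Nkx6-2, a homeobox factor of neural tissue, kept 0.54 in parental and 1.06 in cKO.

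The opposite set held 11 genes, lower in the members of both genotypes with both references: Calcoco2, Klhl13, Cbr3, Lefty1, Fabp5, Mt1, Dnmt3b, Wfdc2, Prdx6, Cd55 and Kazn. With the same limits but fibroblast-marker cells kept, Prdx6, Dnmt3b, Wfdc2 and Mt1 lost the call in parental and Prdx6 and Kazn in cKO. With 1 or more Foxd1 UMIs 4 of the 11 passed in parental and 10 in cKO. With stricter barcodes, which left 43 members and 20 Foxd1-zero cells in cKO, 5 passed in parental and 6 in cKO, where Dnmt3b (0.30) and Lefty1 (1.61) changed sign. Calcoco2, an autophagy receptor also called NDP52, measured 99.4 CPM (93.9 to 105) in parental members and 211 CPM (206 to 216) in same-limits Foxd1-zero cells, and 168 CPM (164 to 173) and 414 CPM (395 to 433) in cKO. The log2 ratios were −1.09 and −1.30. Both intervals lay apart in each genotype, although the cKO members were closer to the parental Foxd1-zero cells than to the parental members.

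Metallothioneins, which bind zinc and other metals, were lower together. Mt1 measured 1147 CPM in parental members and 1785 CPM in same-limits Foxd1-zero cells, and 638 and 1203 CPM in cKO. Mt2 measured 540 and 832 CPM in parental and 255 and 479 CPM in cKO, with log2 ratios of −0.62 and −0.91. With the rule's reference the parental Mt2 ratio was −0.57, just inside the limit. Single cells overlapped widely: the median Mt1 level of parental members was 851 CPM with an upper quartile of 1595 CPM, and that of Foxd1-zero cells 1553 CPM. Prdx6, a peroxiredoxin that removes peroxides, measured 230 against 346 CPM in parental and 157 against 236 CPM in cKO, and was found in at least 97.2% of the cells of all 4 groups.

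Dnmt3b, a de novo DNA methyltransferase that rises as ESC leave the naive state, measured 30.8 against 48.4 CPM in parental and 35.8 against 57.8 CPM in cKO. Its relative Dnmt3a did not pass the limit, at 11.3 against 12.3 CPM and 10.1 against 9.97 CPM. Lefty1, a secreted inhibitor of Nodal, measured 28.2 against 52.9 CPM and 10.2 against 21.2 CPM, but 1 cell held 40.8% of the 98 UMIs in the cKO Foxd1-zero cells. The share of cells with a Lefty1 UMI was not lower in members, at 44.6% against 44.3% in parental and 30.8% against 25.8% in cKO. The cKO ratio without that 1 cell was not tested. Wfdc2, a secreted protease inhibitor domain protein, measured 54.2 against 86.5 CPM and 52.0 against 89.0 CPM. Fabp5 had log2 ratios of −0.66 and −1.18. Cbr3, a carbonyl reductase, had −1.03 and −0.82, Cd55, a complement regulator, −0.81 and −0.64, and Kazn −0.63 and −0.59.

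Klhl13, an X-linked ubiquitin ligase adaptor, had the lowest parental ratio of the 11. It measured 7.32 CPM (5.88 to 9.01) in parental members and 36.5 CPM (34.6 to 38.5) in same-limits Foxd1-zero cells, a log2 ratio of −2.32. The cKO levels were 6.60 and 12.1 CPM (log2 ratio −0.88; −1.32 to −0.42), with 26.8% of the 56 UMIs of the Foxd1-zero cells in 1 cell. A Klhl13 UMI was held by 35.2% of cKO members and 35.5% of cKO Foxd1-zero cells, and the ratio without that 1 cell was not tested. The members of both genotypes were at nearly the same level, and the parental Foxd1-zero cells stood apart. In them 38.6% of cells held a UMI and 1 cell reached 785 CPM.

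**Figure D3:**
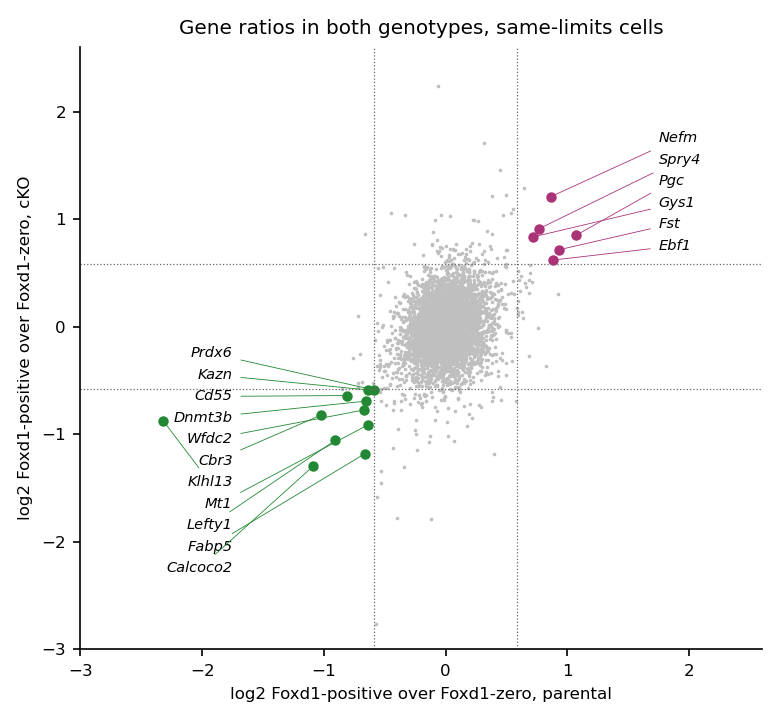
Each point is 1 of 6868 genes that reached 10 CPM on one side of each comparison, placed by its log2 ratio of Foxd1-positive over same-limits Foxd1-zero cells in parental (x axis) and cKO (y axis), with the 1.5-fold limits dotted and 1 gene beyond the axes. The named genes are the 6 higher (purple) and 11 lower (green) with both references, and most other genes lie within the limits.

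The levels of several of these genes differed between classes of Foxd1 UMIs. The genes were chosen for differing between members and Foxd1-zero cells, so the end points are a description. For this description the kept cells within the same limits and of at least 20000 UMIs were sorted by Foxd1 UMIs, and the cells with 1 UMI belong to neither group compared above. Fst went from 45.0 CPM at 0 UMIs over 54.3 at 1 and 72.2 at 2 to 3 to 120 CPM at 12 or more in parental, and from 63.7 over 56.3 and 74.4 to 124 CPM in cKO. Mt1 went from 1785 CPM over 1722 and 1276 to 765 CPM in parental, and from 1203 over 1099 and 919 to 564 CPM in cKO. The steps were not even: parental Fst measured 95.1 CPM at 4 to 7 UMIs and 68.1 CPM at 8 to 11.

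Prdx6 went from 346 CPM in the zero class to 142 CPM in the highest class in parental, and from 236 to 129 CPM in cKO. Wfdc2 went from 86.5 to 25.9 CPM and from 89.0 to 48.5 CPM, and Fabp5 from 91.1 to 21.4 CPM and from 149 to 57.9 CPM. Pgc went from 11.1 to 34.4 CPM and from 12.6 to 25.7 CPM, and Nefm from 17.6 to 57.3 CPM and from 12.1 to 32.3 CPM. Nefm was lower at 1 UMI than at 0 in parental, at 10.9 CPM (8.53 to 13.6), and measured 14.6 CPM at 4 to 7 UMIs in cKO. Wfdc2 was at 93.9 and 97.9 CPM at 1 UMI, above the zero class in both genotypes. Ebf1 went from 22.9 to 56.8 CPM in parental with a step at every class. In cKO it went from 61.3 to 111 CPM but measured 53.3 CPM at 4 to 7 UMIs. The highest class held 31 parental and 158 cKO cells. Its median depth was 58877 UMIs in parental, against 53814 in the zero class, and 84211.5 against 66993.5 in cKO, so depth moved with the classes in cKO.

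**Figure D4:**
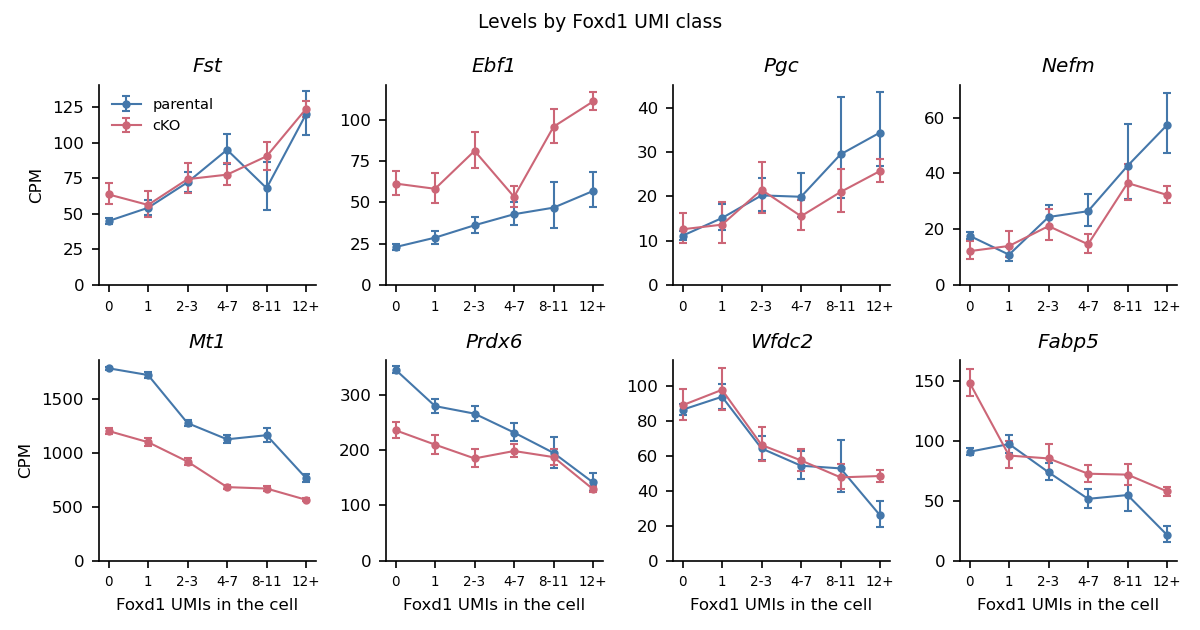
Levels in CPM (y axes, linear, from 0) of 8 genes by Foxd1 UMIs in the cell (x axis, classes) in parental (blue) and cKO (red) ESC, with 95% Poisson intervals over the summed cells. The upper 4 genes stand higher and the lower 4 lower in the class of 12 or more UMIs than in the class of 0, in both genotypes.

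Pluripotency genes separated the groups little in parental. Over all genes 0.544% were higher in parental and 3.0% in cKO with the rule's reference, and 0.438% and 1.33% with the same limits. Of 13 measured members of the naive list 0 were past the limit with either reference, and the median log2 ratio was 0.23 with the rule's and 0.05 with the same-limits reference, beside 0.00 over all genes. In cKO 6 of 13 were higher with the rule's reference (Esrrb, Klf2, Klf4, Nr0b1, Fgf4 and Tcl1; median 0.52) and 2 with the same limits (median 0.295). The 2 were Nr0b1, an orphan nuclear receptor, at 89.1 against 54.8 CPM, and Tcl1, a coactivator of AKT, at 20.1 against 12.1 CPM. Of 12 general pluripotency genes, 0 passed in parental and 2 in cKO (Sox2 and Tdgf1) with the rule's reference, and 0 in both with the same limits. Pou5f1 measured 836 against 722 CPM and 834 against 758 CPM with the same limits.

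Of 8 primed epiblast genes, those of the pluripotent state after implantation, Dnmt3b was lower in both genotypes with both references. Higher with the same limits were Lef1 in parental, and Zic2, Zic5 and Lef1 in cKO, beside 0.438% and 1.33% of all genes. Zic2, a zinc finger factor, measured 15.8 against 7.37 CPM in cKO (log2 ratio 1.1; 0.59 to 1.65) and 13.7 against 9.38 CPM in parental (0.55; 0.28 to 0.82), short of the limit. Fgf5, the usual marker of that state, was at 0.493 CPM or less in all 4 groups with the same limits, too low to be compared. The medians of the list were 0.11 and 0.45.

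With the same limits signalling lists moved in few members in parental and, apart from the Wnt list, in more in cKO. Over all genes with the same limits 0.438% were higher and 0.438% lower in parental, and 1.33% and 2.10% in cKO. Of the FGF and ERK list only Spry4 was past the limit upward in both genotypes with the same limits, of 7 measured in parental and 8 in cKO (medians 0.08 and 0.14), and Fos, an immediate early gene, was lower in cKO at 5.18 against 12.6 CPM. Spry2 measured 39.1 against 30.5 CPM and 54.5 against 51.3 CPM. Of the Wnt list Lef1 was higher, 1 of 6 and 1 of 7. Of the BMP and TGF-beta list Lefty1 was lower in parental (1 of 10), and Id2, Lefty1 and Ctgf in cKO (3 of 11). Id2, an inhibitor of helix-loop-helix factors, measured 72.0 against 151 CPM in cKO and 37.4 against 41.1 CPM in parental. The direct BMP target Id1 did not pass in either genotype, at 220 against 165 CPM and 343 against 304 CPM. Of the LIF and JAK-STAT list 0 of 10 passed in parental, and in cKO Lifr and Gbx2, 2 of 9, were higher (median 0.29). Of the YAP targets 0 of 5 passed in parental, and in cKO Ctgf and Cyr61, 2 of 5, were lower (median −0.33). With the rule's reference in cKO 5 of 7 YAP targets were lower. Of 8 FGF and ERK genes 3 were then higher and 1 lower, beside 3.0% and 8.80% of all genes.

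The cKO members differed from their Foxd1-zero cells in further genes that parental cells did not show past the limit. Gbx2, a homeobox target of LIF signalling, had the highest cKO ratio after Foxd1 under the rule's reference. With the same limits it measured 21.9 CPM (20.1 to 23.7) against 6.72 CPM (4.56 to 9.53), a log2 ratio of 1.70, and in parental 19.4 against 15.6 CPM (0.31; 0.09 to 0.53). Members of both genotypes were close and the cKO Foxd1-zero cells were low. Lifr, the LIF receptor, measured 18.5 against 9.32 CPM in cKO and 18.99 against 16.3 CPM in parental. Dqx1, an RNA helicase relative, measured 30.7 against 6.5 CPM in cKO and 28.8 against 30.0 CPM in parental. Pclaf, a PCNA-binding factor of DNA replication, measured 57.8 against 21.0 CPM and 56.9 against 41.8 CPM, and Slc9a3r2, a scaffold protein, 25.8 against 11.05 CPM and 22.0 against 15.6 CPM. Whether these ratios differ between genotypes was not tested.

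Some epithelial genes were lower in cKO members. Over all genes in cKO 2.10% were lower with the same limits and 8.80% with the rule's reference. Of the surface ectoderm and epithelium list Krt19, Tfap2a and Perp, 3 of 6 measured, were lower with the same limits (median −0.52). With the rule's reference 9 of 10 were lower (median −1.45), but the rule takes keratin-high cells out of the members and leaves 25 of them among the 96 reference cells, so that count is in part set by the choice of cells. Krt19, a keratin, measured 4.01 against 13.9 CPM in cKO and 9.37 against 10.2 CPM in parental. The summed level of 6 epithelial markers, which include the keratins of the rule, was 55.2 CPM in cKO members and 116 CPM in same-limits Foxd1-zero cells, with cells ranging from 0 to 1109 and from 0 to 791 CPM. In parental the sums were 47.7 and 45.8 CPM. The part of epithelial cells below the keratin limit in the cKO ratios was not tested. Peg10, an imprinted gene of trophoblast, measured 71.3 against 162 CPM in cKO and 39.4 against 29.9 CPM in parental. Ptges, a prostaglandin synthase, measured 22.6 against 55.9 CPM in cKO and 10.0 against 12.7 CPM in parental.

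**Figure D5:**
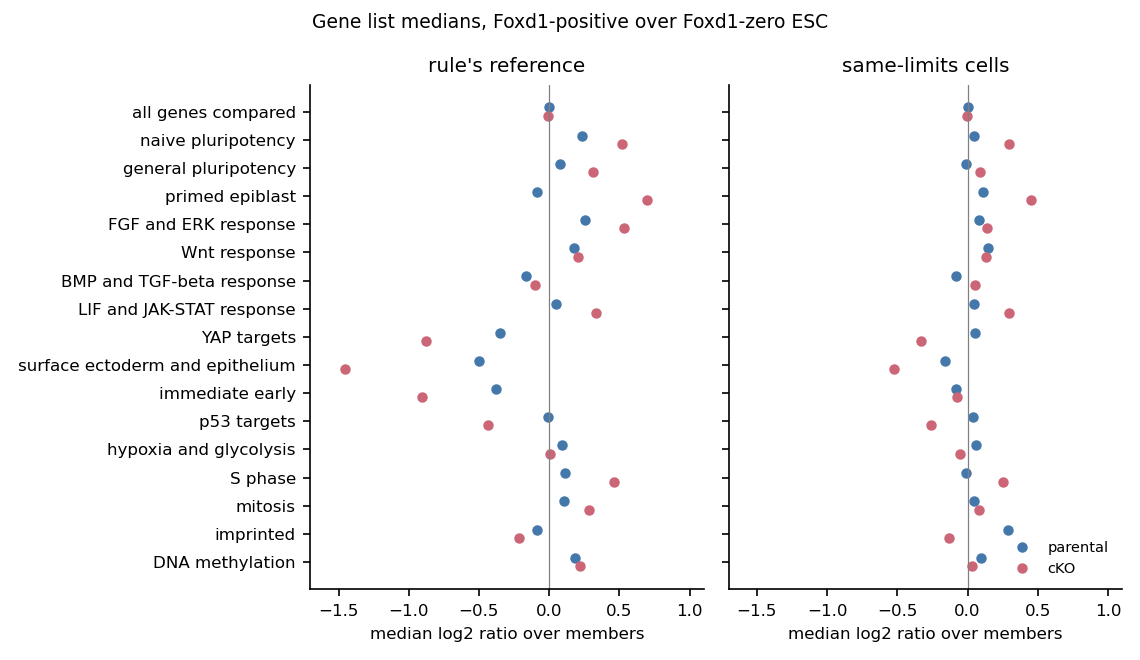
Median log2 ratio over the measured members (x axes) of 16 gene lists and of all genes compared (rows), in parental (blue) and cKO (red) ESC, with the rule's reference (left) and the same-limits reference (right). The medians of most lists lie nearer to 0 on the right, as for surface ectoderm and epithelium in cKO at −1.45 and −0.52.

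Cell cycle and metabolism lists had few calls with the same limits, and some stress genes passed. The shares over all genes were 0.438% higher and 0.438% lower in parental, and 1.33% and 2.10% in cKO. Of 14 S phase genes 0 in parental and 1 in cKO (Ccne2) were higher, with medians of −0.01 and 0.25, and of 14 mitosis genes 0 in both. Of 11 p53 targets 0 were past the limit in both (medians 0.04 and −0.26), and of 12 hypoxia and glycolysis genes 0 in both. Of 7 integrated stress response genes in parental 2 were higher, Ddit3 at 17.3 against 11.5 CPM and Nupr1 at 81.8 against 53.8 CPM. Of 8 in cKO 1 was lower, Ddit4 at 9.98 against 18.6 CPM. Of 6 immediate early genes in cKO Fos and Jun were lower, Jun at 20.1 against 44.0 CPM, and of 5 in parental 0 passed. Of the kidney stroma list, the setting Foxd1 is known from, 0 of 3 in parental and 0 of 4 in cKO passed with the same limits. With the rule's reference 3 of 4 were higher in cKO (Tbx18, Ntn1 and Sfrp1; median 0.80), beside 3.0% of all genes. In parental 0 of 5 were then higher and 2 lower. Of the mesenchyme transcription factors with the same limits Ebf1, the 1 measured, was higher in parental, and Ebf1 and Twist1, 2 of 3, in cKO. Of the temporal retina and eye field list no gene reached 10 CPM in any comparison.

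The same rule found few cells at day 3 and cells with somite genes at day 6. At day 3 it found 6 parental and 7 cKO cells, and Foxd1 over all kept cells was at 1.03 CPM in both. Those cells held 321 and 416 CPM of Pou5f1 and 21.0 and 30.0 CPM of Nanog, with Meox1 at 0 UMIs. The Foxd1-zero cells of that day held 520 and 490 CPM of Pou5f1 and 62.5 and 38.4 CPM of Nanog. The 6 parental cells also held 111 CPM of Prrx1 and 107 CPM of Col1a1, against 0.866 and 1.80 CPM in Foxd1-zero cells. In the 7 cKO cells both were at 0 UMIs. At day 6 it found 147 parental and 109 cKO cells, 9.51% and 6.61% of kept cells, with Foxd1 at 19.6 CPM (18.6 to 20.7) and 18.3 CPM (17.3 to 19.3) over the library. The day 6 cells held 2.39 and 2.81 CPM of Pou5f1. They held 252 and 280 CPM of Tcf15 and 222 and 186 CPM of Meox1, both factors of the somites, against 35.9 and 19.7 CPM and 26.3 and 14.9 CPM in the Foxd1-zero cells of that day. Pou2f3 was at 0 UMIs in them, Tbx18 at 5.30 and 3.68 CPM, and Ebf1 at 36.01 and 35.6 CPM. The excess of Foxd1-positive cells in cKO over parental ESC was not present among the cells at day 6.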

How the data were processed

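The authors deposited gene by barcode matrices of UMI counts, 1 per library, for 6 libraries of 2 genotypes. Reads were processed with Cell Ranger on mm10 per the submitters' processing notes, in version 3.1.0 per the file headers. The kept barcodes and the members followed the limits given with the results. Members and gene lists were chosen with earlier results of these data known. Counts were summed over the cells of a group and scaled to 1000000 UMIs, with exact Poisson intervals for levels, exact conditional binomial intervals for ratios and Clopper-Pearson intervals for shares, at 95%. They cover counting error only. A level of 0 was taken as 3 counts in a ratio.

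Genes named were the label markers, the 12 highest and 12 lowest in both genotypes by the smaller ratio after adding 1 CPM, the 6 highest and lowest per genotype, those called with both references, and list members past the limit. Dnmt3a, Spry2, Id1 and Fgf5 were named after their values were seen. On simulated counts, genes changed 2-fold were recovered in 50 of 50 (up) and 50 of 50 (down) cases in parental and 50 and 49 in cKO. Of unchanged genes 0 of 6812 and 18 of 6962 were called. The simulation drew counting error only, with no spread between cells, so it gives no error rate for the real calls. Doublets were kept in the main result. Scrublet in scanpy 1.11.5 marked 9 parental and 11 cKO ESC barcodes, of which 3 and 7 were members. The ESC libraries shared 0 barcodes, and other pairs of libraries 0 to 2. Library totals ran from 41665721 to 85102600 UMIs. Python 3.11.15, numpy 2.4.6, pandas 2.3.3, scipy 1.17.1 and matplotlib 3.10.9 were used.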

Additional observations from a re-analysis of the deposited data

Results flagged for a closer look

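Ankrd1, a target of YAP signalling, was on opposite sides of 0 in the 2 genotypes under the rule's reference. The log2 ratio of Foxd1-positive over Foxd1-zero cells was 1.66 in parental and −5.27 in cKO, and the difference was not tested. In parental 2 UMIs were left in same-limits Foxd1-zero cells and 0 in members once fibroblast-marker cells were left out.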

How the results depend on the processing

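No paired analysis was possible because each group had 1 library. Main counts of genes were 40 higher and 322 lower in parental, 224 and 658 in cKO, 19 and 172 in both genotypes, and 208 and 124 for cKO over parental members, and 2 lists passed in both. In the same order, values that moved were as follows. With 3 or more Foxd1 UMIs, 66 genes were higher in parental and 30 in both, with shares of 9.96% and 55.5%. With 1 or more they were 19 and 195 in parental, 12 and 101 in both, and 199 lower in cKO members, with shares of 24.4% and 69.6%. With cells of at least 40000 UMIs the cKO share was 68.3%. Thinning to 20000 UMIs gave 79 and 492 in parental, 371 higher in cKO, 29 higher in both and 232 lower in cKO members, with shares of 7.59% and 47.5%. Holding the reference to the same limits gave 98 and 239 in cKO, 108 lower in both and 1 list, and equal weight per cell 4 lists. A minimum of 1 CPM gave 316 and 1350, 823 and 1980, 103 and 732, 793 and 781, and 5 lists. One of 50 CPM gave 11 and 64, 64 and 176, 6 and 33, 59 and 24, and 0 lists. A 2-fold limit gave 6 and 163, 39 and 295, 3 and 67, and 38 and 54. Stricter barcodes (at least 2000 genes, at most 5% mitochondrial UMIs), which left 43 cKO members and 20 Foxd1-zero cells, gave 128 and 129, 836 and 1700, 43 lower in both, 327 and 461, and a cKO share of 50%. Without fibroblast-marker cells 85 were lower in parental, 56 in both and 79 in cKO members, with 1 list. The same limits without fibroblast-marker cells gave 31 lower in parental, 96 and 152 in cKO, 9 and 12 in both, 79 lower in cKO members and 0 lists. With members of 12 or more Foxd1 UMIs these were 364 higher in parental, 258 lower in cKO, 40 and 51, 326 and 253, and 0 lists. The last 2 settings were chosen after seeing the data.

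Log2 ratios that reversed under the stricter barcodes were Nefm (−0.18), Dnmt3b (0.30) and Lefty1 (1.61) in cKO, and S100a6 (0.87), Tnfrsf12a (0.0011), Ccdc80 (2.86), Cck (0.088), Ctgf (0.22) and Cavin1 (0.83) in parental. With the same limits H19 (0.89), Xist (0.064) and Ddit3 (0.078) reversed in cKO. Without fibroblast-marker cells Ankrd1 (−2.33), Cavin1 (0.75) and Acta2 (0.29) reversed in parental and Mgp (0.49) in cKO. With both together H19 (0.86), Xist (0.033) and Ddit3 (0.17) reversed in cKO, and Cck (0.012), Cavin1 (0.65) and Acta2 (0.22) in parental. With 12 or more Foxd1 UMIs on top, H19 (0.90) and Mgp (0.32) reversed in cKO, and Csf1 (0.20), Ccdc80 (0.98), Cck (3.2), Grem1 (0.88), Masp1 (1.32), Ltbp2 (0.83), Nbl1 (0.29), Ctgf (0.17), Id2 (0.044), Cavin1 (0.19) and Acta2 (0.82) in parental. With 1 or more Foxd1 UMIs Mgp (0.0086) and Acta2 (0.0050) reversed in parental, and so did Mgp (0.043) at 40000 UMIs, and Acta2 with thinned cells (0.12) and with equal weight (0.15). The causes were not tested. Median-of-ratios scaling and leaving out doublets moved no count.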

Other observations

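Neuronal and germline genes gave a few further differences with the same-limits reference. Tubb3, a neuronal tubulin, measured 50.4 CPM in cKO members and 31.0 CPM in Foxd1-zero cells, and 42.3 against 44.3 CPM in parental. Rhox5, an X-linked homeobox gene of the germline, measured 3.70 against 19.9 CPM in parental, where 13 of 195 members and 55 of 609 Foxd1-zero cells held a UMI and 1 member held 71.1% of the members' UMIs. In cKO it measured 0.788 and 1.08 CPM.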
